A study of Homo sapiens with 10 samples.

Results

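Glutathione, thioredoxin and antioxidant genes were followed in 697 cells, a line of human pre-B leukaemia, under TPA, a phorbol ester known to activate protein kinase C. The set was a fixed list of 39 gene symbols, chosen by function, though with earlier results of these data known. All 39 were found among the 27142 genes of the expression table. The groups were 2 RNA-seq libraries of parental 697 cells treated with TPA at 0.5 µg/ml and 2 libraries of parental 697 cells titled as controls. The length of treatment is given only as a range of 0 to 24 h, in a note attached to all 4 libraries, and what the controls received is not given in the sources used here. Whether the replicates came from separate cultures is not stated either, so p-values measure only the spread between these libraries, which may be technical. The other 6 samples of the series (ChIP and input DNA) were not analysed here. Levels are in RPKM, reads scaled to gene length and library size, so that levels of different genes can be compared.

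These genes keep cellular thiols reduced and remove peroxides and superoxide. Glutathione, a small thiol peptide, and thioredoxin, a small thiol protein, are the main electron donors; both are recharged with NADPH, glutathione by glutathione reductase and thioredoxin by thioredoxin reductase. Peroxiredoxins and glutathione peroxidases spend these electrons on peroxides, glutaredoxins reverse the binding of glutathione to proteins or carry iron-sulphur clusters, and glutathione transferases attach glutathione to reactive compounds. The transcription factor NRF2, which the adaptor KEAP1 holds at low levels by marking it for destruction, switches on many of these genes through the antioxidant response element.

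Summed RPKM was 349438 and 388846 in the TPA libraries and 370558 and 386700 in the controls. TPA replicate 2 was above TPA replicate 1 for 29 of the 33 genes of the list that could be tested (73.1% of all genes tested), and control replicate 2 above control replicate 1 for 22 (60.8%). When the libraries were scaled to equal summed RPKM, an alternative chosen after seeing the data, 17 genes of the list fell and 2 rose. All 11 pre-B markers passed the filter, and 4 of them rose and 7 fell with TPA. Among the 7, VPREB1, IGLL1 and DNTT had 3.94%, 1.96% and 3.3% of their control mean RPKM with TPA. MME had 0.097 and 0.083 RPKM with TPA, against 10.4 and 5.99 RPKM in control. It passed the filter only through its control values, so that it had to be lower with TPA. T-cell markers stayed at 0.044 RPKM or less and erythroid markers at 0.109 RPKM or less, with CD3D, CD3E and HBB at 0 in every library. Of 6 myeloid markers, CSF1R rose to 2.93 and 3.66 RPKM with TPA, against 0.548 and 0.706 RPKM in control, and the other 5 stayed at 0.187 RPKM or less; CSF1R passed the filter only through its TPA values. The summed level of the myeloid markers was 3.17 and 3.96 RPKM with TPA, against 0.667 and 1.01 RPKM in control, and its part in the results was not tested.

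Of the 39 genes, 33 reached 1 RPKM in 2 or more of the 4 libraries, the filter used, and were tested. With TPA 14 of these 33 fell, 2 rose and 17 did not pass (limma, Benjamini-Hochberg adjusted p under 0.05 over all genes tested). Falls made up 42.4% of the 33 genes, beside 29.8% of all 12159 genes tested, and rises 6.06%, beside 28.4%. The 16 calls together compare with 58.2% of all genes tested called in either direction. The median log2 fold change of the 33 genes was -0.35, beside -0.02 over all genes tested. Both TPA libraries lay below both controls for 21 of the 33 genes (41.0% of all genes tested) and above both for 3 (38.8% of all genes tested), and the groups overlapped for 9; the 24 genes without overlap compare with 79.8% of all genes tested in either direction. GSTM2 passed the filter only through its control values, so that it had to be lower with TPA. These fold changes are on the log2(RPKM + 1) scale, which understates the change of genes with low values. In bulk RNA a change in the RNA of each cell and a change in the mix of cells cannot be told apart.

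On the log2(RPKM + 1) scale the 4 largest falls were those of GLRX5, PRDX1, TXNRD1 and SOD1. GLRX5, PRDX1 and TXNRD1 were the genes of the list that fell by at least 1 on that scale. SOD1 came to -1.0 only after rounding. Counted before rounding, 11.5% of all genes tested fell by at least 1. As a share of the control mean RPKM, GLRX5 had 41.4% with TPA, PRDX1 44.5%, TXNRD1 49.0% and SOD1 50.1%. The low-level GSTM2 had 46.3% on this measure, with a smaller log2(RPKM + 1) change. Leaving out control replicate 2 reduced the 14 falls to 9, leaving out control replicate 1 to 10 and leaving out TPA replicate 1 to 11, whereas 17 genes fell when TPA replicate 2 was left out. The count of 2 rises was 1 without control replicate 1. The fits without a control replicate, here and for each gene named below, rest on another estimate of the spread (infinite prior degrees of freedom in limma), so a call lost in them can come from that as well as from the library.

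**Figure D1:**
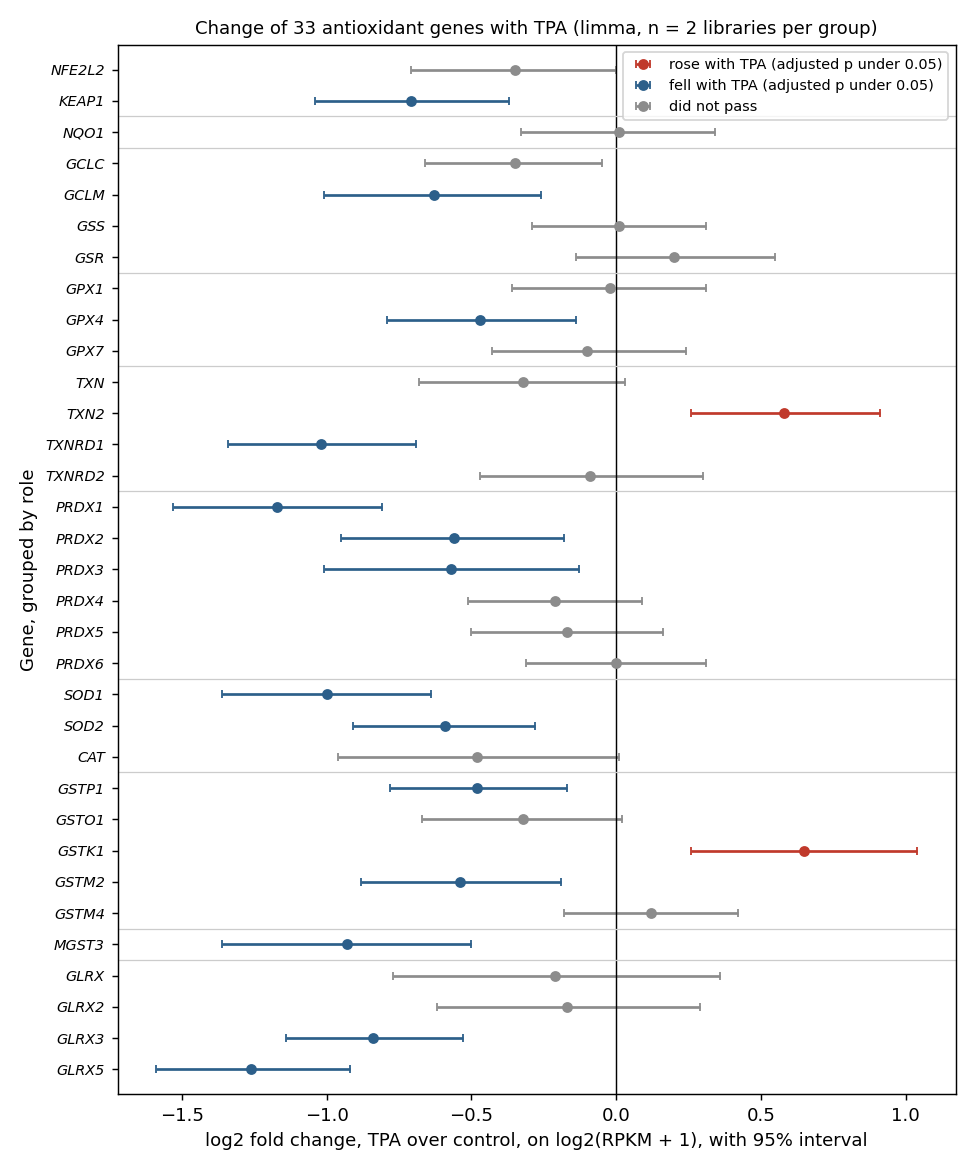
Change with TPA of the 33 genes tested, as the log2 fold change (TPA over control, on the log2(RPKM + 1) scale, x axis) with its 95% interval from limma, 2 libraries per group; genes are grouped by role. The 14 genes that fell are blue, the 2 that rose, TXN2 and GSTK1, are red, and the 17 that did not pass are grey, with GLRX5 farthest to the left at -1.26.

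Before the values by role, the promoters of 3 genes that fell are shown because they hold the letters through which NRF2 is known to act. The promoter of GSTO1, which did not pass, holds them too and is not shown. The antioxidant response element was searched as TGACNNNGC and the TPA response element, the site of AP-1 factors, as TGANTCA, on both strands, in the window from 250 bases before to 50 bases after each start in RefSeq (GRCh38.p14); the motifs can overlap, since TGACTCAGC holds both. Of the 39 genes, 31 were matched to such a window, and the other 8 were GSS, GSR, TXN2, PRDX1, PRDX6, SOD1, MGST2 and GLRX3. The antioxidant element letters were found in 4 of these 31 windows (12.9%), those of GCLM, TXNRD1, GSTP1 and GSTO1. The shares were 15.5% of the 8941 windows matched to genes tested and 13.6% of all 27305 windows. Unlike those 8941, the 31 windows include genes that were not tested (GPX3, GPX8, SRXN1, GSTM3 and MGST1). The TPA element letters were found in 1 window, that of GSTP1, beside 4.21% of the windows of genes tested and 7.76% of all. Over the 31 windows neither share was higher than in other windows, and a match in letters is not a measured site. Of the 11 windows of genes that fell, 3 held the antioxidant element letters and 1 the TPA element letters. A link of the letters to the falls was not tested. In the sequences, 5′ to 3′ along the gene, capitals mark the matches.
GCLM, chr1:93909381-93909680 (GRCh38.p14, minus strand): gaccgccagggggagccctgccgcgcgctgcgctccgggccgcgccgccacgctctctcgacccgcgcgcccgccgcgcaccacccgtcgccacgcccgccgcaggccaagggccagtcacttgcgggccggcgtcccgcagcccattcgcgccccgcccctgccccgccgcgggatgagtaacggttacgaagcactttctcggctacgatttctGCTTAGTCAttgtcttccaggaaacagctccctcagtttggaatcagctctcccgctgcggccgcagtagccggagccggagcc
TXNRD1, chr12:104215529-104215828 (GRCh38.p14, plus strand): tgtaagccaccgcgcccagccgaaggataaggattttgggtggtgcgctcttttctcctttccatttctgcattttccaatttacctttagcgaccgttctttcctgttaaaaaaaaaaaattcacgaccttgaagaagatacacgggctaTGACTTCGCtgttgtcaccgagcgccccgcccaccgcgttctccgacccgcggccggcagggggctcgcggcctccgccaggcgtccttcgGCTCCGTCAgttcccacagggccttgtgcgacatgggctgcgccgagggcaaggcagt
GSTP1, chr11:67583562-67583861 (GRCh38.p14, plus strand): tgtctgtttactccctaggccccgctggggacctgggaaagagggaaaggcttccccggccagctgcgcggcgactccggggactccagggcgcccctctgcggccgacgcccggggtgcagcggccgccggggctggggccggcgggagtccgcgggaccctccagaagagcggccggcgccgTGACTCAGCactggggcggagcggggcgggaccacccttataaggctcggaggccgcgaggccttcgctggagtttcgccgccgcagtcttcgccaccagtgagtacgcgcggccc
Counted from the start site, the GCLM match runs from -34 to -26 on the opposite strand. TXNRD1 has matches from -99 to -91 and, on the opposite strand, from -8 to 1. In GSTP1 the antioxidant element letters run from -66 to -58 and the TPA element letters from -66 to -60.

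Of the NRF2 axis, the repressor gene fell. KEAP1, the adaptor that targets NRF2 for degradation, had 26.3 and 31.9 RPKM in the TPA libraries, against 48.4 and 47.5 RPKM in the controls. Both TPA values lay below both controls, and KEAP1 fell (log2 fold change -0.71, SE 0.145, adjusted p = 0.00365). NFE2L2, the gene of NRF2 itself, had 17.5 and 19.4 RPKM with TPA, against 21.3 and 26.6 RPKM in control. Its groups did not overlap either, but it did not pass (log2 fold change -0.35, adjusted p = 0.0802). Without control replicate 2 the value was -0.20 (adjusted p = 0.548). NQO1, a quinone reductase often used as a readout of NRF2, was low in every library, at 1.88 and 1.55 RPKM with TPA and 1.95 and 1.47 RPKM in control. Its groups overlapped, and its log2 fold change of 0.01 had a 95% interval from -0.33 to 0.34.

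Of 4 genes of glutathione synthesis and recycling, GCLM fell and the other 3 did not pass. GCLC and GCLM encode the catalytic and the modifier subunit of glutamate-cysteine ligase, the rate-limiting enzyme. GCLM had 3.15 and 4.46 RPKM with TPA, against 6.10 and 6.69 RPKM in control, and fell (log2 fold change -0.63, SE 0.163, adjusted p = 0.0108). The GCLM call was lost with no filter on low values (adjusted p = 0.0661). It was also lost at an adjusted p under 0.01 and in the test against a 1.2-fold change. GCLC had 9.27 and 9.90 RPKM with TPA, against 11.9 and 13.1 RPKM in control. The libraries of GCLC were apart by group, yet it narrowly did not pass (log2 fold change -0.35, adjusted p = 0.0504), and it passed in 6 of 16 alternative settings. GSS, the synthetase of the second step, averaged 24.8 ± 1.14 RPKM with TPA and 24.6 ± 0.111 RPKM in control (mean ± SD here and below, n = 2 libraries in each group). GSR, which recycles oxidised glutathione, averaged 42.9 ± 5.69 RPKM with TPA and 37.0 ± 2.74 RPKM in control. Neither passed, with intervals from -0.29 to 0.31 for GSS and from -0.14 to 0.55 for GSR, although GSR passed after quantile normalization.

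Among glutathione peroxidases, GPX4 fell. GPX4, the selenoprotein that reduces lipid peroxides in membranes, had 99.2 and 115 RPKM with TPA, against 149 and 147 RPKM in control. Both TPA libraries lay below both controls, and it fell (log2 fold change -0.47, SE 0.140, adjusted p = 0.0210). The call was lost without TPA replicate 1 and without either control replicate (highest adjusted p among these fits 0.139). GPX1, the main cytosolic form and also a selenoprotein, averaged 63.4 ± 8.30 RPKM with TPA and 64.1 ± 2.30 RPKM in control. GPX7, a form of the endoplasmic reticulum that uses cysteine, had 43.8 and 52.7 RPKM with TPA, against 52.2 and 50.6 RPKM in control. The groups of GPX1 and GPX7 overlapped and neither passed, with intervals from -0.36 to 0.31 and from -0.43 to 0.24. GPX3, the secreted form, and GPX8, another form of the endoplasmic reticulum, stayed under the filter, at 0.129 RPKM or less and 0.040 RPKM or less in every library.

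In the thioredoxin system, the cytosolic reductase fell and the mitochondrial thioredoxin rose. TXNRD1, the cytosolic thioredoxin reductase, had 48.7 and 56.3 RPKM with TPA, against 104 and 109.7 RPKM in control. Both TPA values lay far below both controls, and the gene fell (log2 fold change -1.02, SE 0.139, adjusted p = 4.45e-04). TXN2, the mitochondrial thioredoxin, had 66.8 and 76.3 RPKM with TPA, against 44.9 and 49.8 RPKM in control. Both TPA values of TXN2 lay above both controls, and it rose (log2 fold change 0.58, SE 0.141, adjusted p = 0.00819), a call that was lost without control replicate 1 (adjusted p = 0.0864). The cytosolic thioredoxin gene TXN had 157 and 184 RPKM with TPA, against 196 and 231 RPKM in control. Its groups were apart, but it did not pass (log2 fold change -0.32, adjusted p = 0.107). TXN was at -0.21 without TPA replicate 1 and -0.20 without control replicate 2, and it passed after scaling to equal summed RPKM (adjusted p = 0.0464). TXNRD2, the mitochondrial reductase, averaged 9.33 ± 2.18 RPKM with TPA and 9.86 ± 0.156 RPKM in control, and its groups overlapped (interval from -0.47 to 0.30).

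The cytosolic genes of this system exceeded the mitochondrial ones by less with TPA. The ratio of TXN to TXN2 was 2.35 and 2.41 in the TPA libraries, against 4.36 and 4.64 in the controls. TXNRD1 exceeded TXNRD2 by a ratio of 6.25 and 5.18 with TPA, against 10.5 and 11.3 in control. The ratio of TXN to its reductase TXNRD1 was 3.22 and 3.27 with TPA, against 1.88 and 2.10 in control. All 3 ratios were apart by group, as were the levels of 79.8% of all single genes tested. They were chosen with earlier results known and restate the changes of the genes above, so they are no separate evidence. With 2 libraries per group an exact two-sided permutation test cannot give a p below 0.333, so none was run on them.

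Peroxiredoxins, thiol peroxidases that take their electrons mostly from thioredoxin, split into genes that fell and genes that did not pass. PRDX1, a cytosolic form and the most abundant of all 39 genes in both groups, had 294 and 357 RPKM with TPA, against 682 and 782 RPKM in control. Both controls lay far above both TPA libraries, and it fell (log2 fold change -1.17, SE 0.156, adjusted p = 3.84e-04). PRDX2, a second cytosolic form, had 176 and 235 RPKM with TPA, against 303 and 299 RPKM in control, and fell (log2 fold change -0.56, SE 0.167, adjusted p = 0.0198). PRDX3, the mitochondrial form, had 83.1 and 112 RPKM with TPA, against 126 and 163 RPKM in control, and fell too (log2 fold change -0.57, SE 0.191, adjusted p = 0.0331). TPA replicate 1 was the lower of the TPA libraries for both. Without TPA replicate 1 the log2 fold change was -0.36 for PRDX2 and -0.35 for PRDX3, and neither passed; PRDX2 also did not pass without either control replicate, and PRDX3 without control replicate 2.

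The other peroxiredoxins did not pass. PRDX6, the form that draws on glutathione, had 208 and 224 RPKM with TPA, against 209 and 221 RPKM in control. Its groups overlapped fully, with an interval from -0.31 to 0.31. PRDX1 exceeded PRDX6 by a ratio of 1.41 and 1.60 with TPA, against 3.26 and 3.54 in control. PRDX4, of the endoplasmic reticulum, averaged 66.2 ± 0.312 RPKM with TPA and 76.8 ± 2.45 RPKM in control, and PRDX5, found in several compartments, 90.8 ± 10.3 RPKM with TPA and 102 ± 3.01 RPKM in control. For both, the TPA libraries lay below the controls (intervals from -0.51 to 0.09 and from -0.50 to 0.16). SRXN1, the sulfiredoxin gene whose product repairs overoxidised peroxiredoxins, stayed under the filter, at 0.040 RPKM or less in every library.

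Both superoxide dismutase genes fell. SOD1, the copper-zinc enzyme of the cytosol, had 113 and 139 RPKM with TPA, against 236 and 267 RPKM in control. The groups were wide apart, and SOD1 fell (log2 fold change -1.0, SE 0.155, adjusted p = 8.76e-04). SOD2, the manganese enzyme of mitochondria, had 24.4 and 27.6 RPKM with TPA, against 38.4 and 40.8 RPKM in control. It fell (log2 fold change -0.59, SE 0.136, adjusted p = 0.00650), a call lost without control replicate 2 (adjusted p = 0.0595). CAT, the peroxisomal catalase, had 24.6 and 39.4 RPKM with TPA, against 44.7 and 42.8 RPKM in control. Its TPA libraries lay below the controls but far from each other, and it did not pass (log2 fold change -0.48, adjusted p = 0.0849). Without TPA replicate 1 the value was -0.15 (adjusted p = 0.418). It passed without TPA replicate 2, the higher one (adjusted p = 0.00562).

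**Figure D2:**
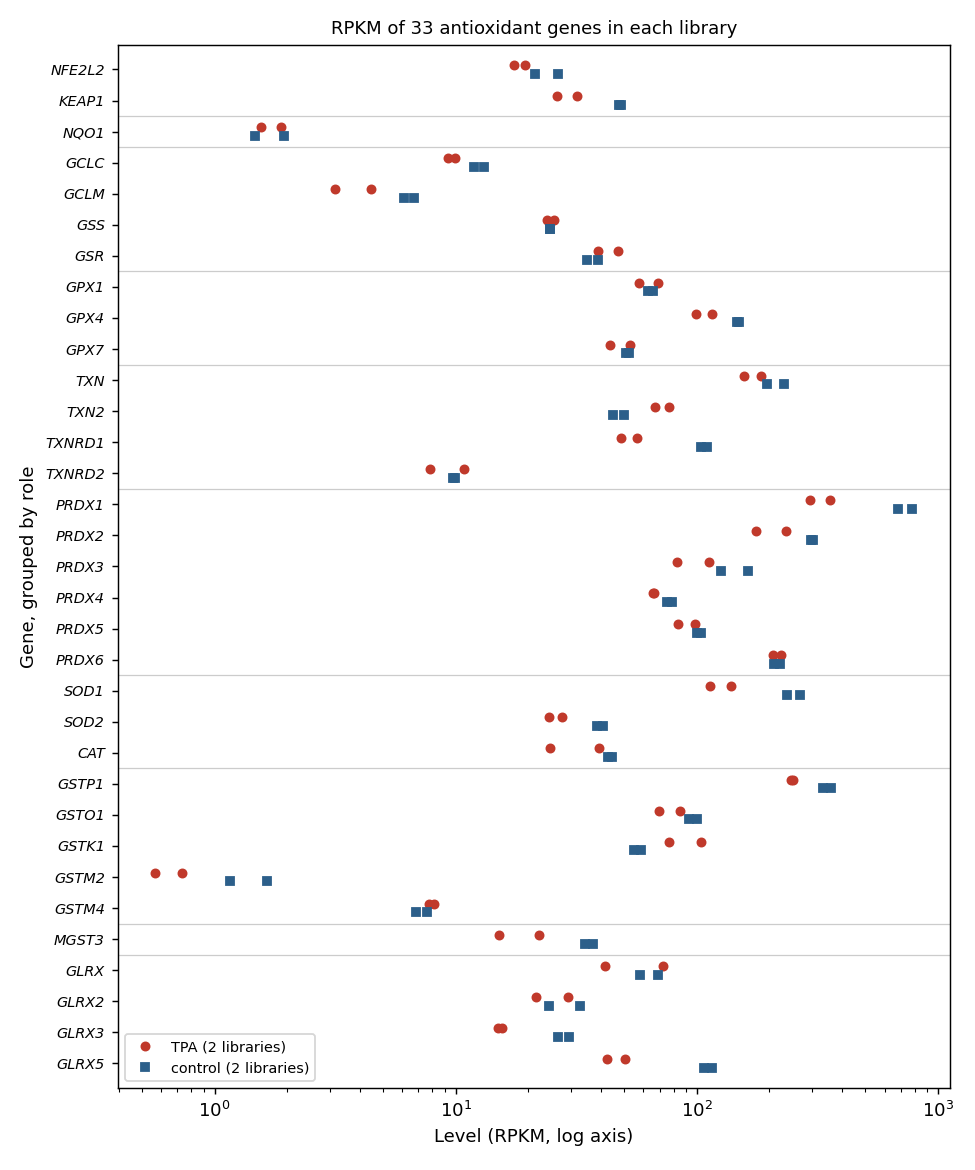
Level in RPKM (x axis, log scale) of the 33 genes tested in each of the 2 TPA libraries (red circles) and 2 control libraries (blue squares), with lines between roles. The control values of PRDX1, SOD1, TXNRD1 and GLRX5 lie clear of the TPA values to the right, TXN2 and GSTK1 lie the other way, and the values of PRDX6, GSS and GPX1 overlap.

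Glutathione transferases went both ways. GSTP1, the pi-class transferase, was the second most abundant of the genes in both groups, with 251 and 246 RPKM with TPA, against 360 and 333 RPKM in control. It fell (log2 fold change -0.48, SE 0.133, adjusted p = 0.0155), but the call was lost without either control replicate and after quantile normalization. GSTK1, the kappa-class transferase of mitochondria and peroxisomes, had 76.9 and 104 RPKM with TPA, against 55.1 and 58.5 RPKM in control. Both TPA libraries of GSTK1 lay above both controls, and it rose (log2 fold change 0.65, SE 0.170, adjusted p = 0.0117). Without TPA replicate 2 the value was 0.43. The GSTK1 call was lost with no filter on low values (adjusted p = 0.0551). It was also lost at an adjusted p under 0.01 and in the test against a 1.2-fold change. GSTO1, the omega-class transferase, averaged 77.1 ± 10.9 RPKM with TPA and 96.3 ± 5.54 RPKM in control and did not pass (log2 fold change -0.32, adjusted p = 0.0987). GSTO1 was at -0.18 without TPA replicate 1 (adjusted p = 0.340). It passed without TPA replicate 2 (adjusted p = 0.0400) and after scaling to equal summed RPKM (adjusted p = 0.0398).

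The mu-class genes were low. GSTM2 had 0.730 and 0.568 RPKM with TPA, against 1.64 and 1.16 RPKM in control, and fell (log2 fold change -0.54, adjusted p = 0.0152). That call was lost without control replicate 1. GSTM4 averaged 7.92 ± 0.260 RPKM with TPA and 7.23 ± 0.510 RPKM in control and did not pass (interval from -0.18 to 0.42). GSTM3 was listed at 0.005 RPKM in TPA replicate 1 and at 0 in the other libraries. These genes lie in one cluster in 1p13.3 and resemble each other closely, so reads could be split between them and their values are uncertain.

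Of the membrane-bound transferases, MGST3 was the one above the filter. MGST3, which acts on lipid peroxides in membranes, had 15.0 and 22.2 RPKM with TPA, against 34.4 and 37.1 RPKM in control. Both TPA libraries were far below the controls, and it fell (log2 fold change -0.93, SE 0.186, adjusted p = 0.00330). MGST1 and MGST2 were listed at 0 in every library.

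Of 4 glutaredoxin genes, GLRX5 and GLRX3 fell. GLRX5, the mitochondrial member needed for iron-sulphur cluster transfer, had 42.2 and 50.2 RPKM with TPA, against 107 and 116 RPKM in control. It fell (log2 fold change -1.26, SE 0.145, adjusted p = 1.77e-04), the largest fall among the genes of the list. GLRX3, a cytosolic member that also binds such clusters, had 15.6 and 15.0 RPKM with TPA, against 26.6 and 29.5 RPKM in control, and fell as well (log2 fold change -0.84, SE 0.133, adjusted p = 9.92e-04). The groups of both genes were apart by more than the spread of their replicates. GLRX, the classical cytosolic glutaredoxin, had 41.6 and 72.3 RPKM with TPA, against 58.2 and 69.1 RPKM in control. Its TPA libraries enclosed the controls, and it did not pass (interval from -0.77 to 0.36), although it passed without TPA replicate 2 (log2 fold change -0.60) and was at 0.19 without TPA replicate 1. GLRX2, found in mitochondria, averaged 25.4 ± 5.45 RPKM with TPA and 28.6 ± 6.01 RPKM in control, and its groups overlapped (interval from -0.62 to 0.29).

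As a sum over the 39 genes, the level was 2216 and 2635 RPKM in the TPA libraries, against 3354 and 3600 RPKM in the controls. This was 0.634% and 0.678% of all summed RPKM with TPA, against 0.905% and 0.931% in control. The peroxiredoxin genes made up the largest part, with 910.0 and 1092 RPKM with TPA, against 1500 and 1643 RPKM in control. PRDX1 alone accounted for 38.6% of the difference between the group means of the sum and SOD1 for 11.9%. Without PRDX1 the sum was 1922 and 2278 RPKM with TPA, against 2672 and 2818 RPKM in control. The order of levels changed in part. PRDX1 and GSTP1 ranked first and second in both groups, whereas GLRX5 ranked 18 with TPA and 9 in control, and TXNRD1 ranked 16 with TPA and 10 in control.

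**Figure D3:**
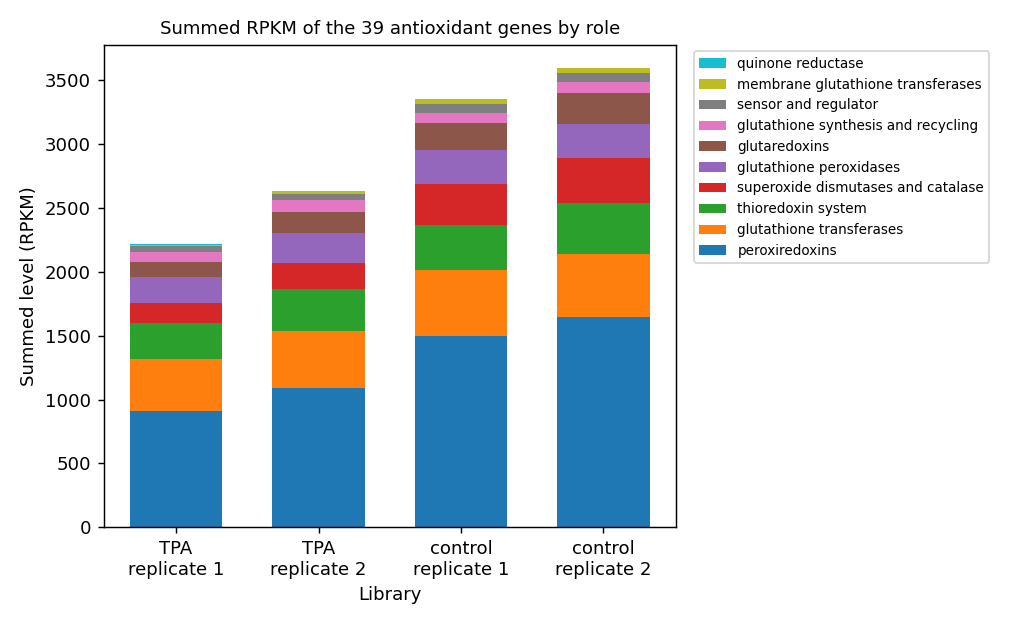
Summed RPKM of the 39 genes in each library (y axis), stacked by role. The TPA bars reach 2216 and 2635 RPKM and the control bars 3354 and 3600 RPKM, and the peroxiredoxin segment at the bottom differs most.

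Genes of the same pathways outside the list were read from 6 further lists of 99 genes, of which 69 were tested. With TPA 16 of these rose, 31 fell and 22 did not pass, with a median log2 fold change of -0.24. Falls were 44.9% and rises 23.2% of the 69 genes, beside 29.8% and 28.4% of all genes tested. Of the 16 rises, those of HMOX1 and GSTA4 had a direction fixed by the filter, which both passed only through their TPA values.

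Among regulators and partners of NRF2, 3 of 11 tested genes rose and 3 fell. Each share was 27.3%, near the 28.4% that rose and 29.8% that fell of all genes tested. MAFF, a small MAF protein that pairs with NRF2, rose to 6.11 and 6.29 RPKM with TPA, against 2.05 and 1.41 RPKM in control (log2 fold change 1.41). Its relative MAFK fell to 6.82 and 6.66 RPKM with TPA, against 13.8 and 11.7 RPKM in control (log2 fold change -0.82). SQSTM1, the autophagy receptor that binds KEAP1, rose (log2 fold change 0.78), and BACH2, a repressor at the same DNA element that acts in B cells, fell (log2 fold change -0.81).

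Among other NRF2-linked genes, 5 of 13 tested rose and 5 fell (38.5% each, beside 28.4% and 29.8% of all genes tested). TXNIP, which encodes the protein that binds and inhibits thioredoxin, had 151 and 200.03 RPKM with TPA, against 15.3 and 6.54 RPKM in control. It rose (log2 fold change 3.98, SE 0.323, adjusted p = 2.5e-05), the largest log2(RPKM + 1) change among the 69 genes tested. The aldo-keto reductase genes went in opposite directions: AKR1C3 rose (log2 fold change 1.83), and AKR1B1 and AKR1A1 fell (-1.27 and -0.71). HMOX1, the heme oxygenase gene, named here after its values were seen, had 2.09 and 1.22 RPKM with TPA and was listed at 0 in both controls; it is among the 5 that rose and passed the filter only through its TPA values.

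Of 12 tested genes that supply NADPH, 1 rose, 5 fell and 6 did not pass. Rises were 8.33% and falls 41.7%, beside 28.4% and 29.8% of all genes tested. NADK2, the mitochondrial NAD kinase, rose to 186 and 169 RPKM with TPA, against 38.3 and 35.2 RPKM in control (log2 fold change 2.24). MTHFD1 of one-carbon metabolism and NNT, the mitochondrial transhydrogenase that makes NADPH, fell (log2 fold change -1.59 and -1.11).

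In the list of precursor supply and turnover of glutathione, of 13 tested genes 1 rose, 9 fell and 3 did not pass. The median log2 fold change was -0.52. Falls were 69.2% and rises 7.69%, beside 29.8% and 28.4% of all genes tested. This was the highest share of falls among the 6 lists, but the ranking was read from the values and was not tested. CHAC2, which breaks glutathione down, fell to 2.32 and 3.38 RPKM with TPA, against 17.6 and 24.7 RPKM in control (log2 fold change -2.52). The glutamine transporter gene SLC1A5 fell to 24.4 and 25.0 RPKM with TPA, against 75.3 and 78.4 RPKM in control (log2 fold change -1.60). HAGH, the second enzyme of the glutathione-dependent glyoxalase pathway, rose (log2 fold change 0.58).

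Further members of the same families divided evenly, with 5 of 12 tested genes that rose and 5 that fell. Each share was 41.7%, beside 28.4% that rose and 29.8% that fell of all genes tested. GSTA4, an alpha-class transferase, rose to 4.23 and 4.92 RPKM with TPA, against 0.591 and 0.657 RPKM in control (log2 fold change 1.78), and passed the filter only through its TPA values. MSRA, a methionine sulphoxide reductase, rose (log2 fold change 1.64), and the thioredoxin-like NXN and the transferase-like GSTCD fell (-1.50 and -0.91). Of 8 genes of selenoprotein synthesis, 1 rose and 4 fell, with a median of -0.28. SEPHS1, of the selenophosphate synthetase family, and EEFSEC, the selenocysteine elongation factor, fell (log2 fold change -1.23 and -0.53), and SEPSECS, the enzyme that makes selenocysteine on its tRNA, rose (0.77).

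**Figure D4:**
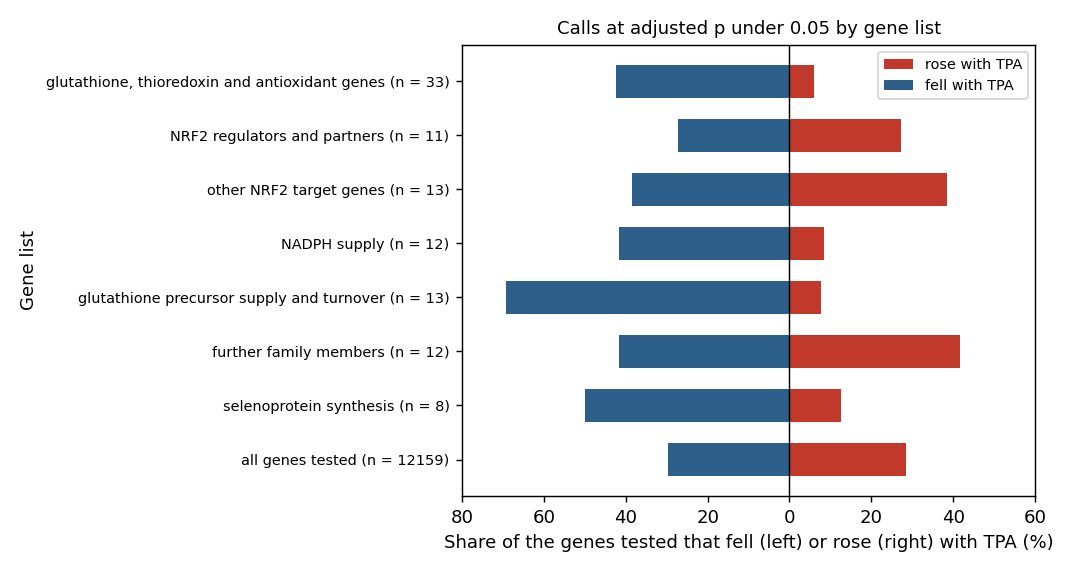
Share of the genes tested (x axis, %) that fell (blue, to the left) or rose (red, to the right) with TPA at an adjusted p under 0.05, for the glutathione, thioredoxin and antioxidant genes, 6 lists of other pathway genes and all 12159 genes tested. The top bar shows 42.4% fallen and 6.06% risen, and the bottom bar 29.8% and 28.4%.

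In RefSeq's annotation PRDX1 overlaps MMACHC (log2 fold change -0.37), SOD2 overlaps WTAP and ACAT2 (-0.23 and -1.96), and PRDX5 overlaps TRMT112 (-0.55). How reads in such overlaps were assigned, and whether by strand, is not given in the sources used here. The table pairs PRDX3, GSTM3 and GSTM4 with RefSeq entries of non-coding transcripts, so their values may rest on other gene models than those of the protein-coding transcripts.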

How the data were processed

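The authors deposited 1 table with an RPKM value for each gene and RNA library, per the file headers. CASAVA 1.8, Bowtie 1.12, TopHat, SAMtools, HOMER and build hg19 are named in the submitters' processing notes, without role or order; use of strand and handling of multiply mapped reads are not given in the sources used here. The read totals are unknown, so no counting interval is given; steps between low values put the depth of the other libraries at 91.3% to 97.8% of control replicate 1.

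Samples were grouped by their titles. Values were transformed to log2(RPKM + 1), genes that reached 1 RPKM in 2 or more of 4 libraries were kept, and TPA was compared with control in limma 3.58.1 (R 4.3.3; two-sided, trended prior with 5.88 degrees of freedom beside 2 residual ones), a script tested on simulated data. The genes, the further lists and the ratios shown were chosen with earlier results of these data known. Within each further list, the 2 genes with the smallest p in each direction were named. Promoters came from RefSeq (GRCh38.p14). Figures used matplotlib 3.10.9. Alternatives changed the pseudocount, filter, scaling, variance model, threshold, pairing and libraries.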

Additional observations from a re-analysis of the deposited data

How the results depend on the processing

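The counts of calls and the log2 fold changes of the genes of the list were recomputed under 16 alternatives (15 for NQO1 and GSTM2), of which scaling to equal summed RPKM was chosen after seeing the data. Of the 16 calls, 7 kept their side of the threshold and direction in every setting (KEAP1, TXNRD1, PRDX1, SOD1, MGST3, GLRX3 and GLRX5), and the other 9 kept their direction in every setting that tested them but lost the call in at least 1. With no filter 1 gene of the list rose and 11 fell, and GCLM, PRDX2, PRDX3 and GSTK1 lost the call. At an adjusted p under 0.01, 1 rose, 8 fell and 20 other pathway genes fell. With limma's treat against a 1.2-fold change 0 rose, 7 fell and 18 other pathway genes fell. With 1 library left out, 1 to 2 rose and 9 to 17 fell, and 12 to 16 of the other pathway genes rose and 21 to 31 fell. Leaving out either control replicate made limma's prior degrees of freedom infinite, so a call lost there can come from that as well as from the library. The replicate numbers are shared by TPA and control, with no label that says they mark a shared batch (the replicate differences of the 2 groups correlated at 0.361 over genes). In the fit with a replicate block, 2 genes rose and 19 fell, 18 and 35 of the other pathway genes rose and fell, and 8234 of all genes were called, against 7075 without it; NFE2L2, TXN, CAT and GSTO1 passed with the block (adjusted p = 0.0123, 0.0117, 0.0307 and 0.0133), as did GCLC (0.0153). Genes that did not pass changed sign in part. GPX1 was 0.032 after median-of-ratios scaling, 0.12 after quantile normalization and 0.017 after scaling to equal sums; NQO1 was -0.16 and GPX7 0.026 after quantile normalization. With 1 library left out, GPX1 ranged from -0.15 to 0.11, NQO1 from -0.12 to 0.13, GPX7 from -0.23 to 0.034, TXNRD2 from -0.30 to 0.13, GLRX from -0.60 to 0.19, GLRX2 from -0.38 to 0.045, GSS from -0.032 to 0.058 and PRDX6 from -0.050 to 0.056. The filter at 5 RPKM removed NQO1 and GSTM2. The ratios, summed levels, promoter shares, counts of each further list and values of its genes were not recomputed. The causes of these changes were not tested.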
